A study of Mus musculus with 28 samples.

Results

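Solute carriers are membrane proteins that move sugars, amino acids, nucleosides, vitamins, metals and other ions across the plasma membrane and the membranes of organelles. The genes described here are the solute carrier genes expressed in sorted retinal microglia, the resident macrophages of the retina. They were chosen by symbol and by measured level, as the genes named Slc with a family number whose RPKM (reads scaled to transcript length and library depth) was at least 5 in at least 5 of 28 retinas. Of 376 such symbols, 9 antisense or pseudogene symbols and 3 genes named by the rule (Slc2a1, Slc7a2 and Slc7a11) were set aside, and 78 of the 364 that were left became members. Of the other 286, 138 stayed under an RPKM of 1 in every retina and 94 were high enough to be tested. The fifth highest RPKM was 5.02 for Slc4a7, 5.06 for Slc38a1 and 5.14 for Slc35f6, just inside the limit, and 4.91 for Slc25a51, 4.89 for Slc8a1 and 4.87 for Slc22a17, just outside it.

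Microglia carry out surveillance and phagocytosis, and their carriers serve the uptake of fuel, the recycling of lysosomal products and the handling of iron, zinc and copper. Carriers of the Slc25 family sit mainly in the inner mitochondrial membrane, Slc35 proteins load the Golgi apparatus and the endoplasmic reticulum (ER) with nucleotide sugars and related compounds, and Slc39 and Slc30 proteins move zinc into and out of the cytosol respectively.

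Live tdTomato-positive cells were sorted from single retinas of male heterozygous Cx3cr1CreER:R26-tdTomato mice on a C57BL/6 background, in which a tamoxifen-induced Cre driven by the fractalkine receptor gene leaves a lasting red label on microglia, and all groups had received topical tamoxifen. Endotoxin-induced uveitis (EIU) was induced by intravitreal injection of lipopolysaccharide (LPS), and microglia were taken at 4 h (6 retinas), 18 h (5 retinas) and 2 weeks (7 retinas) and compared with those of 10 uninjected naïve retinas to ask how the microglial transcriptome changes and whether it returns. There was no vehicle-injected group, so LPS and the injection cannot be told apart. The retinas were collected in 2 experiments, with 6 naïve, 3, 4 and 4 EIU retinas in the first and 4, 3, 1 and 3 in the second. The labels do not say which retinas came from the same mouse, so the p-values measure the spread between retinas.

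Differences were tested on log2(RPKM + 1) with limma across 13164 genes, and a gene was called at a Benjamini-Hochberg adjusted p of at most 0.05 with a difference of at least 2-fold. Changes are given on this log2(RPKM + 1) scale, on which low genes appear to change less than they did. Each retina had between 7510000 and 19700000 alignments. All 10 microglial markers fixed for this work were detected, and their summed RPKM ranged from 6669 to 14670 in naïve retinas, from 2293 to 8610 at 4 h, from 4152 to 8529 at 18 h and from 7900 to 15470 at 2 weeks. In sorted bulk cells, fewer cells of a type and less RNA per cell cannot be told apart. RNA of 12 rod markers was found in every group, at a summed RPKM of 823 to 6629, 1024 to 5972, 730 to 2796 and 978 to 6573. The 7 lymphocyte markers summed to at most 0.0806 in naïve retinas and to 6.59 to 86.4 at 18 h, where Nkg7, a gene of cytotoxic lymphocytes, supplied most of the sum while Cd79a was listed at 0. The 7 monocyte markers summed to 0.228 to 49.5 and the 9 neutrophil markers to 0 to 17.1 at 18 h, against at most 3.19 and 0.2 in naïve retinas. The monocyte sum also reached 15.5 at 4 h and 26.7 at 2 weeks (medians 1.08 and 0.932), where Plac8 reached 12.8 and 26.6. The part of these cells in the changes at 18 h was not tested.

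In 4 retinas (naïve replicates 3 and 4, 18 h replicate 4 and 2-week replicate 1) fewer than 8000 genes reached an RPKM of 1, against 8137 to 11825 in the other retinas. Members followed the same pattern. Between 47 and 77 of the 78 members reached an RPKM of 1 in a retina, and these 4 retinas held 47, 47, 52 and 55 of them. In naïve retinas, experiment 1 gave 47 to 76 members and experiment 2 gave 73 to 76. Calls that were gained or lost without these retinas are given near the end.

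**Figure D1:**
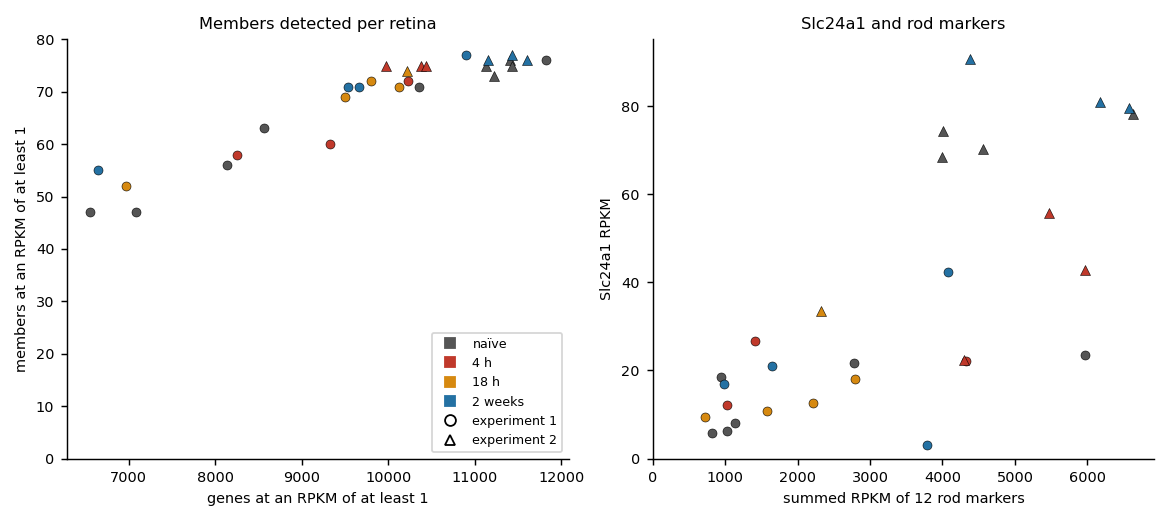
Left, the number of members at an RPKM of at least 1 against the number of all genes at that level, 1 point per retina, coloured by group, with circles for experiment 1 and triangles for experiment 2. Right, Slc24a1 RPKM against the summed RPKM of 12 rod markers in the same retinas. The 4 retinas with under 8000 genes hold 47 to 55 members, and the naïve triangles lie at 68.5 to 78.1 RPKM of Slc24a1 against 5.79 to 23.4 for the naïve circles.

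The promoters of a member that was higher at 4 h and of a pair that were lower are shown for the region before their start sites, because their transcripts moved in opposite directions at that time. Of the 78 members, 61 had a RefSeq promoter entry for GRCm38.p6, and the 250 bases before the start were searched on both strands. Capitals mark the motif letters of a TATA box (TATAAA, or its complement) and of GC boxes (GGGCGG, or its complement), at any position in the window. Slc2a6, at chr2:27027999-27028248 on the minus strand, lies outside annotated exons, as does Slc35a1, at chr4:34687439-34687688 on the minus strand, while 12 bases of Slc29a3, at chr10:60752783-60753032 on the minus strand, lie in annotated exons.
Slc2a6: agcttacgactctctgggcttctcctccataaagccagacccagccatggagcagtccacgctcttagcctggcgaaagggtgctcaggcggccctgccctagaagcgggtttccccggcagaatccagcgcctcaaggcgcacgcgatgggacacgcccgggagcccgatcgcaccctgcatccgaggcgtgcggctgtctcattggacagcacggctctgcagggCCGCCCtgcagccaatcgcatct
Slc29a3: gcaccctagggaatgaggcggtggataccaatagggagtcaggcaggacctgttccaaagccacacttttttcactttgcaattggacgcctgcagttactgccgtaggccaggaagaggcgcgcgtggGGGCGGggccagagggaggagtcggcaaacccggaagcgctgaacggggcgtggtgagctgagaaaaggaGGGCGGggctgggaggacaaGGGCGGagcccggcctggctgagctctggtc
Slc35a1: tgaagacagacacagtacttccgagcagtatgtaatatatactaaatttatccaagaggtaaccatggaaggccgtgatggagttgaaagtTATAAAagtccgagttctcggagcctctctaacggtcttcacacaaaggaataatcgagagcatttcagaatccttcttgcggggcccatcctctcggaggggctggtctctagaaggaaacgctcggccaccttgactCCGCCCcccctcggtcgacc
Slc2a6 and Slc35a1 held 1 GC box each and Slc29a3 held 3. This motif was found in 32.7% of 32851 mouse promoter windows of this length and in 65.8% of the 79 windows of members (a gene can have several). The members were chosen for their level, and no share was taken for other genes at that level. The difference can therefore not be assigned to carriers. Slc35a1 also held the letters TATAAA, found in 12.4%. They were searched at any position, and in Slc35a1 they lie nearer the far end of the window than the start site. A working TATA box is therefore not shown. Neither the κB consensus (7.25% of windows) nor the AP-1 motif TGANTCA (6.75%) matched in the 3 windows, which says only that these letters were not in them.

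In naïve retinas the mitochondrial carriers gave the highest levels. RPKM is per transcript length, so levels can be set side by side. Slc25a5, the ubiquitous exchanger of ADP and ATP across the inner mitochondrial membrane, had the highest naïve median at 418 RPKM (82 to 537 over 10 retinas), followed by Slc25a4, its close relative, at 119 (21.0 to 208), which overlapped with it in range. Slc50a1, a sugar efflux carrier, came next at 59.0 RPKM, with Slc25a3 (mitochondrial phosphate) at 48.8, Slc25a33 (mitochondrial pyrimidine nucleotides) at 44.4, Slc3a2 (the heavy chain of the CD98 amino acid transporters) at 42.5, Slc31a2 (a copper carrier of endosomes and lysosomes) at 35.3, Slc2a5 (the fructose transporter) at 33.8, Slc35b1 (the ER exchanger of ATP and ADP) at 30.5 and Slc25a11 (mitochondrial oxoglutarate) at 28.9. The naïve ranges of all neighbours in this order overlapped. Across the members, 26 had a naïve median of at least 10 RPKM, 19 of 5 to under 10, 29 of 1 to under 5 and 4 under 1. The low end was unstable: 20 members were listed at 0 in at least 1 naïve retina, only 17 reached an RPKM of 1 in all 28 retinas and only 8 reached 5 in all.

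**Figure D2:**
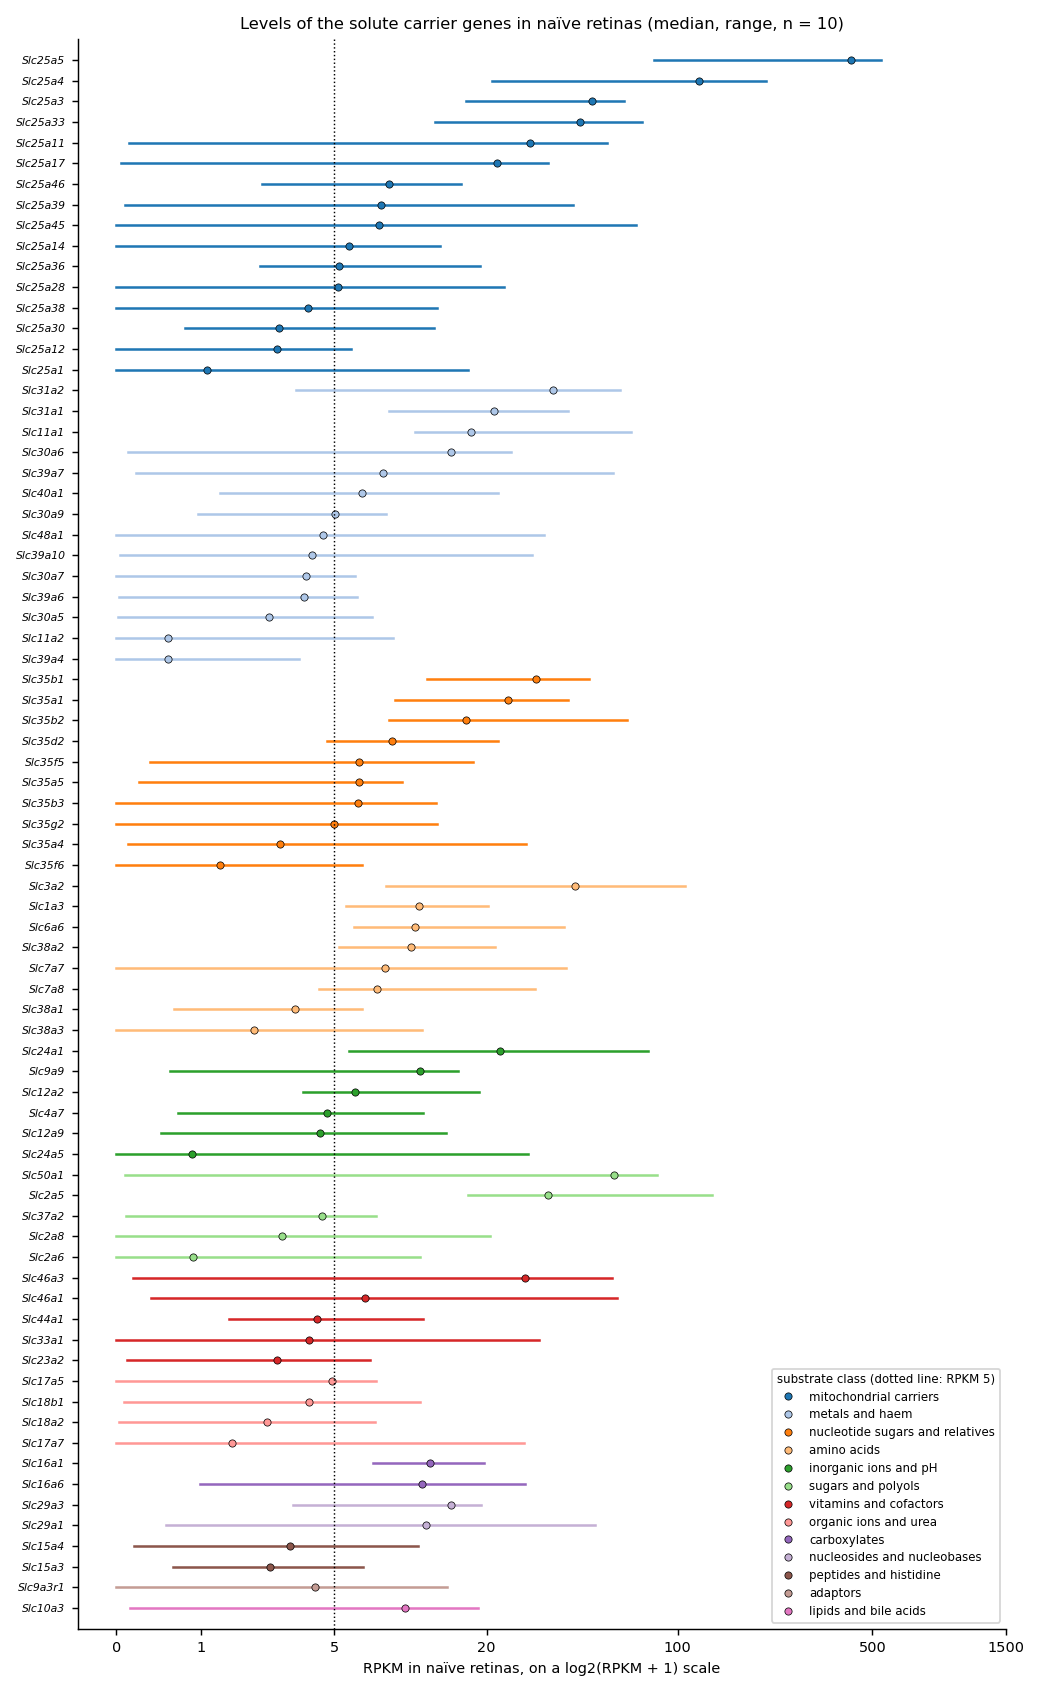
Naïve RPKM of 76 members on a log2(RPKM + 1) axis, 1 row per gene, grouped and coloured by substrate class, with dots for the median and lines for the lowest to highest of 10 retinas. Mitochondrial carriers hold the 2 highest medians, 418 and 119 RPKM, and the lines of many genes with a median near the dotted limit of 5 reach down to between 0 and 1.

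At 4 h, 11 of 78 members were called, 5 higher and 6 lower than in naïve microglia. These were 6.41% and 7.69% of the members, against 3.68% and 4.39% of all genes tested and 4.4% and 6.64% of the 7315 genes at the members' level. At 18 h, 2 members were higher (2.56%) and 4 lower (5.13%), against 2.84% and 1.85% of all genes and 4.24% and 2.62% at that level. At 2 weeks no member was called, against 0.0076% of all genes. The median log2 fold change of the members was -0.13, 0.01 and 0.17 for 4 h, 18 h and 2-week retinas, and that of all genes tested was -0.11, -0.08 and 0.07. The shares of members and of genes at their level differ by a few genes and were not tested against each other.

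How the members were chosen bears on these counts. The 49 members that pass the limit on naïve retinas alone gave 1 higher and 6 lower calls at 4 h, and the other 29 gave 4 higher and none lower. Slc11a2, Slc2a6, Slc39a4 and Slc15a3 are members only because the 4 h retinas were counted, so their 4 h levels are given as a description with no p. Slc40a1 passes on naïve retinas but not without them, and it is treated in the same way where it is set against naïve retinas. Slc37a2, Slc15a4 and Slc44a1 also do not pass without the naïve retinas and are described in that way. The other members named below with a call at 4 h or 18 h over all retinas pass both with naïve retinas alone and without them.

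**Figure D3:**
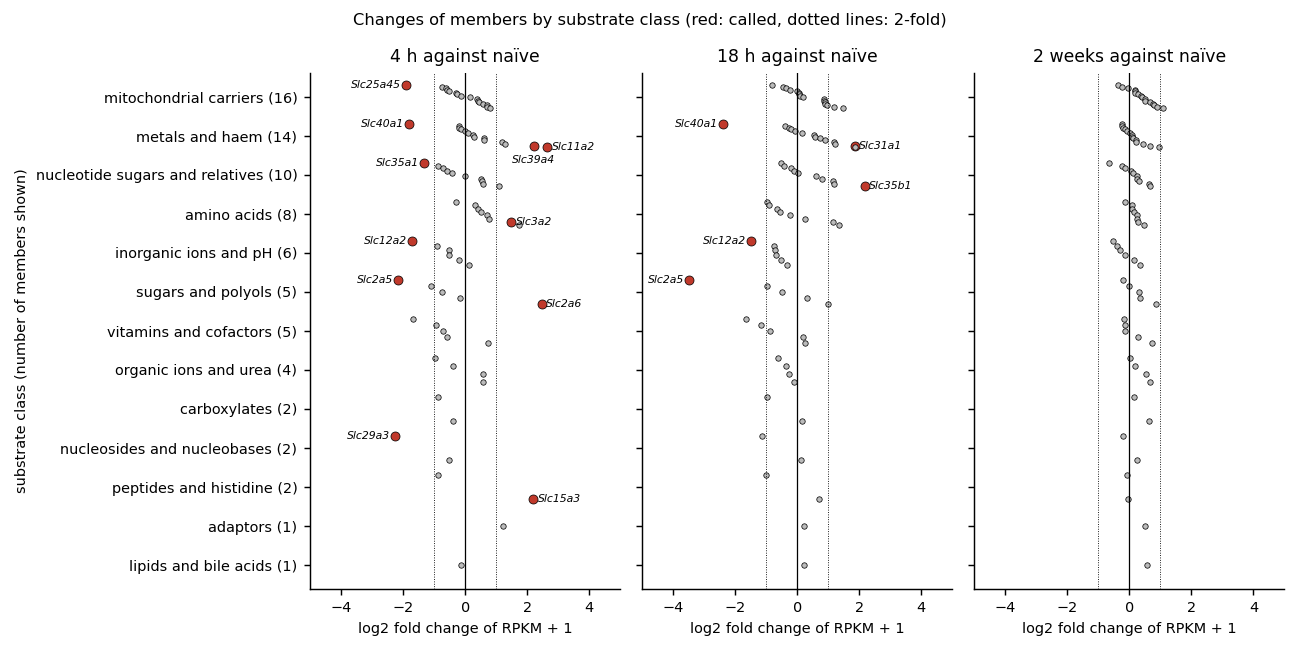
Log2 fold change of RPKM + 1 against naïve microglia for 76 members, in panels for 4 h, 18 h and 2-week retinas, 1 point per gene, by substrate class, with called genes in red and named and dotted lines at a 2-fold change. The 4 h panel holds 5 red points to the right and 6 to the left, the 18 h panel 2 and 3, and the 2-week panel none.

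Sugar carriers held the member that fell furthest. Slc2a5, the fructose transporter and a gene typical of microglia, had 17.1 to 132.5 RPKM in naïve retinas with a median of 33.8, 0.127 to 29.7 (median 12.9) at 4 h and 13.7 to 81.9 (31.9) at 2 weeks. The 5 retinas at 18 h held 8.26, 1.77, 1.73, 0 and 5.52 RPKM. All 18 h retinas were thus below the lowest naïve retina, while 4 h retinas ranged from near 0 into the naïve range. Slc2a5 fell by 2.17 ± 0.59 (SE) on the log2 scale at 4 h (limma, adjusted p = 0.016) and by 3.50 ± 0.63 at 18 h (adjusted p = 0.00054). The 4 h call was lost without 4 h replicate 2 (adjusted p = 0.082) or 3 (0.066), and within experiments the 4 h change was -3.12 and -1.19. Slc2a6, a lysosomal hexose carrier of macrophages, moved the other way at 4 h. It was listed at 0 to 11.2 RPKM (median 0.88) in naïve retinas, 2.49 to 60.4 (7.21) at 4 h and 0 to 4.69 (1.22) at 2 weeks, with 1.54, 1.19, 2.38, 0 and 3.11 at 18 h, so that among naïve retinas only replicate 1, at 11.2, reached into the 4 h range. The 4 h difference was 2.47 ± 0.54 on the log2 scale, 3.13 in experiment 1 and 1.76 in experiment 2, and Slc2a6 was 2.15 ± 0.63 lower at 18 h than at 4 h.

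The other sugar carriers were not called. Slc50a1, with a naïve median of 59.0 RPKM, had 22.6 at 4 h, 71.7 at 18 h and 73.7 at 2 weeks, with ranges that overlapped throughout. Slc37a2, a sugar phosphate exchanger of the ER, had 4.42 RPKM in naïve retinas and 1.60 at 4 h (log2 difference -1.10 ± 0.39, and -1.29 when the 4 retinas with the fewest genes were left out). Slc2a8, an intracellular glucose carrier, had 2.90, 0.959, 0.91 and 5.30 RPKM over the 4 groups. Summed over the 5 sugar carriers, the median RPKM was 94.6, 58.4, 77.9 and 136 over naïve, 4 h, 18 h and 2-week retinas, with ranges that overlapped (22.4 to 243 in naïve retinas).

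Metal carriers moved in both directions. Slc40a1, or ferroportin, the iron exporter of the plasma membrane, had 1.35 to 22.1 RPKM in naïve retinas (median 6.53), 0.178 to 2.40 (1.18) at 4 h and 1.04 to 12.4 (7.97) at 2 weeks. At 18 h the values were 1.17, 0.296, 0.023, 0.00979 and 0.787, all below the naïve range. The log2 fold change was -1.81 ± 0.43 at 4 h and -2.40 ± 0.45 at 18 h. Slc11a2, the DMT1 importer of ferrous iron, had 0 to 8.74 RPKM (median 0.53) in naïve retinas and 5.03 to 53.4 (12.5) at 4 h. It had 10.5, 4.26, 10.2, 0.18 and 4.08 RPKM at 18 h and 0.0159 to 3.86 (1.57) at 2 weeks. Its 4 h retinas lay at or above 5.03, a level that 1 naïve retina exceeded, and the 4 h difference was 2.64 ± 0.56 on the log2 scale. The 18 h difference was 1.22 ± 0.59 (adjusted p = 0.28). In 4 h retinas the exporter was lower and the importer higher than in naïve retinas. Each is a member only through the group where it was high, so this contrast of the pair is a description. At 18 h all values of the exporter lay below the naïve range while 2 of 5 of the importer lay above it.

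Slc39a4, the ZIP4 zinc importer, had 0 to 3.49 RPKM in naïve retinas (median 0.527), and every 4 h retina was above this, at 3.63 to 11.9 (9.04). The 18 h values were 1.20, 0.428, 0.399, 0 and 1.34, all below the 4 h range, and at 2 weeks it had 0.975 to 5.75 (2.74). The log2 difference was 2.21 ± 0.38 at 4 h and -2.47 ± 0.44 between 18 h and 4 h. At 2 weeks it had the smallest p of any member before adjustment (log2 fold change 0.95 ± 0.36, adjusted p = 1). Slc31a1, the high-affinity copper importer, had 8.40 to 40.0 RPKM in naïve retinas (median 21.3), 17.3 to 186.7 (42.4) at 4 h and 12.2 to 26.8 (19.2) at 2 weeks. Its 18 h values were 66.4, 101.5, 97.9, 99.8 and 42.3, all above the naïve range. It rose by 1.85 ± 0.45 on the log2 scale at 18 h (limma, adjusted p = 0.011). The call was lost in experiment 1 alone (1.74, adjusted p = 0.086) and with replicate number as a block (1.48, 0.073). At 4 h Slc31a1 differed by 1.20 ± 0.42 (adjusted p = 0.077). Its 4 h retinas had 47.3 to 186.7 RPKM in experiment 1 and 17.3 to 37.5 in experiment 2.

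Of the other 10 metal and haem carriers none was called. Slc31a2 had a naïve median of 35.3 RPKM and 18 h values of 122.2, 92.1, 139.9, 12.6 and 51.9, where replicate 4 was the low one (log2 fold change 1.18 ± 0.58, adjusted p = 0.29). Slc30a6, a zinc carrier of the Golgi, had a naïve median of 14.6 and 45.7, 39.2, 41.3, 20.7 and 47.6 at 18 h (1.86 ± 0.77, adjusted p = 0.19). Slc11a1, the divalent metal carrier of phagosomes, had medians of 17.5, 20.7, 36.7 and 26.1 RPKM in naïve, 4 h, 18 h and 2-week retinas. The zinc carriers Slc30a5, Slc30a7, Slc30a9, Slc39a6, Slc39a7 and Slc39a10 and the haem carrier Slc48a1 had naïve medians of 2.503 to 7.95 RPKM and log2 fold changes between -0.38 and 0.88 at 4 h and 18 h. The summed RPKM of the 14 metal and haem carriers had a median of 121.5 (101 to 308) in naïve retinas, 242 (115 to 296) at 4 h, 287 (203 to 385) at 18 h and 110 (77.2 to 282) at 2 weeks.

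Of 20 genes listed for iron, zinc and copper handling outside the Slc families, 18 were tested and 3 were called higher at 4 h. Fth1, the heavy chain of the iron store ferritin, rose from 674 to 4783 RPKM in naïve retinas to 5176 to 11800 at 4 h and 6327 to 38420 at 18 h (log2 2.06 and 3.22, adjusted p = 0.0013 and 1.7e-05), with no overlap with naïve retinas. The metallothioneins Mt1 and Mt2, which bind zinc and copper, rose by 2.13 and 5.00 at 4 h (adjusted p = 0.0038 and 3.1e-05), and were 1.99 and 3.63 lower at 18 h than at 4 h on the log2 scale. At 18 h the 3 called were Fth1, Hmox1 (the enzyme that breaks down haem) at 2.80 (adjusted p = 0.029) and Cp (ceruloplasmin, a copper enzyme that oxidises iron) at 3.03 (adjusted p = 0.00042). None was lower at either time. The list's median was 0.30 and 0.16 on the log2 scale at 4 h and 18 h. The 3 erythrocyte markers summed to 0 to 16.9 RPKM in naïve retinas, 1.12 to 311.9 at 4 h, with a median of 12.3, and 0 to 28.7 at 18 h, and their part in the changes of iron and haem genes was not tested.

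**Figure D4:**
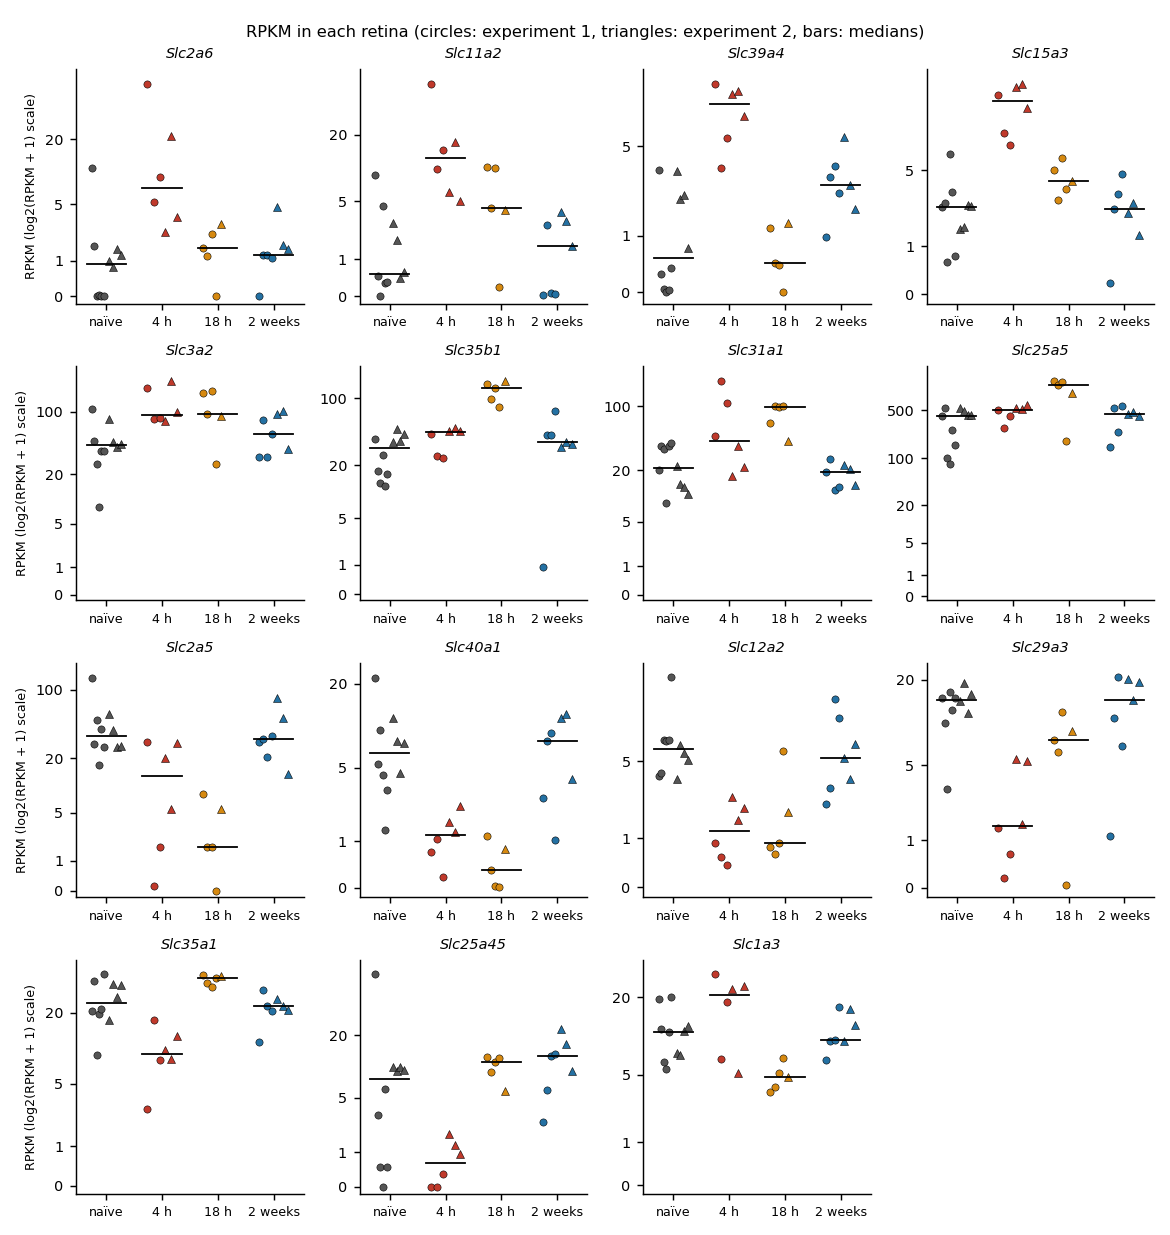
RPKM of 15 members in every retina on log2(RPKM + 1) axes, for naïve, 4 h, 18 h and 2-week retinas, with circles for experiment 1, triangles for experiment 2 and bars at group medians. Slc39a4 and Slc15a3 at 4 h and Slc35b1 and Slc31a1 at 18 h lie above every naïve retina, and Slc2a5 and Slc40a1 at 18 h and Slc12a2 at 4 h lie below every naïve retina.

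Slc15a3 and Slc15a4 carry peptides and histidine out of lysosomes. Slc15a3 had 0.599 to 6.61 RPKM in naïve retinas (median 2.54), 7.64 to 19.9 (15.3) at 4 h and 0.166 to 4.71 (2.40) at 2 weeks, with 4.98, 2.87, 6.14, 3.55 and 4.12 at 18 h. Its 4 h retinas lay above all others in the study. The difference was 2.20 ± 0.35 at 4 h, with 1.83 in experiment 1 and 2.58 in experiment 2, and 1.49 ± 0.41 on the log2 scale separated 4 h from the lower 18 h values. The related Slc15a4 had a naïve median of 3.16 RPKM, 1.61 at 4 h and 1.12 at 18 h and differed by -0.86 ± 0.47 and -1.02 ± 0.49 on the log2 scale.

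Among 8 amino acid carriers, Slc3a2 was called. It anchors light chains such as Slc7a7 and Slc7a8 at the cell surface, and it had 8.21 to 106.5 RPKM in naïve retinas (median 42.5), 79.6 to 219.2 (92.1) at 4 h and 31.1 to 101.6 (56.8) at 2 weeks. At 18 h it had 160.1, 94.5, 170.4, 26.03 and 90.4 RPKM, with replicate 4 the low one. Slc3a2 rose by 1.49 ± 0.44 on the log2 scale at 4 h (adjusted p = 0.026). That call was lost without 4 h replicate 1 (adjusted p = 0.079) or 5 (0.094), and also under rescaling to equal summed RPKM (0.084). At 18 h it differed by 1.16 ± 0.46 (adjusted p = 0.16), and without 18 h replicate 4 by 1.60 (adjusted p = 0.036).

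The light chain Slc7a7, an exchanger of cationic and neutral amino acids, was near 0 in its lowest naïve retina and reached 39.4 RPKM in its highest (median 8.09), with 16.6 to 63.9 (21.6) at 4 h, and it did not pass the test (1.74 ± 0.66, adjusted p = 0.10). Slc7a8, another light chain, had medians of 7.56 and 8.19 RPKM in naïve and 4 h retinas. The glutamine carriers Slc38a1 and Slc38a2 and the taurine carrier Slc6a6 had naïve medians of 3.33, 10.3 and 10.6 RPKM and differed by 0.33, 0.78 and 0.71 on the log2 scale at 4 h, none called. Slc1a3, the glutamate carrier of Müller glia and astrocytes, was called lower at 18 h than at 4 h by 1.49 ± 0.41 (adjusted p = 0.026), with 5.22 to 29.6 RPKM at 4 h and 3.51, 3.91, 5.22, 6.83 and 4.76 at 18 h. That call was lost when any of 7 retinas was left out (adjusted p up to 0.085). The 8 Müller glia markers summed to 154 to 254 RPKM at 4 h and to 191 to 577 at 18 h, where Dbi had a higher mean (103.7 ± 42.0 and 247.6 ± 168.5, SD, n = 6 and 5). Of the other markers, 6 had a lower mean at 18 h than at 4 h, among them Rlbp1 (12.3 ± 9.72 and 1.96 ± 2.75) and Car14 (10.1 ± 4.99 and 1.83 ± 1.48), while Kcnj10 was under 0.4 on average at both times. Their part in the difference of Slc1a3 was not tested. Slc38a3, a glutamine carrier also found in Müller glia, had medians of 2.11, 4.38, 0.803 and 1.61 RPKM. Over the 8 amino acid carriers the summed RPKM had medians of 91.0, 182, 149 and 139 in naïve, 4 h, 18 h and 2-week retinas.

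Genes of amino acid sensing at the lysosome were listed beside these carriers. Of 12 tested, 2 were lower at 4 h, Lamtor2 and Lamtor4, scaffold subunits that bring mTORC1 to the lysosome, by 1.49 and 1.74 on the log2 scale (adjusted p = 0.03 and 0.00046). Lamtor4 was 1.96 higher at 18 h than at 4 h (adjusted p = 0.0014), and none was called at 18 h or 2 weeks against naïve retinas. Of 10 listed subunits and partners of carriers, such as Bsg and Emb, none was called in any comparison, and their median log2 fold change was 0.10 at 4 h and -0.24 at 18 h. For these 10, limma gave an unadjusted p under 0.05 for 2 at 4 h and for 0 in the other comparisons.

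A lysosomal nucleoside carrier and a Golgi carrier, Slc29a3 and Slc35a1, were called lower at 4 h and not at 18 h or 2 weeks. Over all retinas only Slc35a1 of the pair was also called in the direct comparison of 18 h with 4 h. Slc29a3, which exports nucleosides from the lysosome, had 3.27 to 19.0 RPKM in naïve retinas (median 14.7), 0.149 to 5.55 (1.47) at 4 h and 1.14 to 20.7 (14.7) at 2 weeks, with 7.66, 6.25, 12.02, 0.0453 and 8.87 at 18 h. Among naïve retinas only replicate 3, at 3.27, reached into the 4 h range. It fell by 2.27 ± 0.52 on the log2 scale at 4 h (adjusted p = 0.0036), with -2.86 and -1.76 in the 2 experiments. The 18 h difference was -1.14 ± 0.55 (adjusted p = 0.28), and the 18 h value of replicate 4 lay far below the other 4. Slc29a1, the nucleoside carrier of the plasma membrane, had medians of 11.8, 6.76, 9.63 and 12.5 RPKM and was not called.

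Slc35a1, which carries CMP-sialic acid into the Golgi, had 8.91 to 40.1 RPKM (median 24.0) in naïve retinas, 2.87 to 17.3 (9.13) at 4 h and 11.5 to 30.3 (22.5) at 2 weeks. Its 18 h values, 39.4, 34.4, 31.7, 37.8 and 38.8, lay close together and above all 4 h retinas. It fell by 1.33 ± 0.32 at 4 h (adjusted p = 0.006) and was 1.92 ± 0.38 higher at 18 h than at 4 h (adjusted p = 0.0013), with 0.59 ± 0.34 between 18 h and naïve (adjusted p = 0.39). Slc35b1, which supplies the ER with ATP, kept within 24.0 to 49.2 RPKM at 4 h against 11.8 to 47.7 in naïve retinas, and had 142.1, 98.4, 127.8, 82.0 and 151.4 at 18 h. All 18 h retinas were above every naïve, 4 h and 2-week retina (the highest at 2 weeks was 73.9). It rose by 2.17 ± 0.53 at 18 h (limma, adjusted p = 0.011), a call lost in experiment 1 alone (2.5, adjusted p = 0.098). The difference from 4 h was 1.62 ± 0.58 (adjusted p = 0.11).

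The other 8 members of the Slc35 group were not called. Slc35b2 and Slc35b3, which bring the sulphate donor PAPS into the Golgi, had naïve medians of 16.7 and 6.29 RPKM and 25.8 and 11.1 at 18 h (adjusted p = 0.80 and 0.21). Slc35a4, Slc35a5, Slc35d2, Slc35f5, Slc35f6 and Slc35g2 had naïve medians of 1.34 to 8.68 RPKM and log2 fold changes between -0.89 and 1.20. The summed RPKM of the 10 members had medians of 118 (58.1 to 192) in naïve retinas, 116 (52.8 to 151) at 4 h, 243 (166 to 272) at 18 h and 142 (48.9 to 194) at 2 weeks. Slc35b1 alone had medians of 30.5 in naïve retinas and 127.8 at 18 h.

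Among the ion carriers a cotransporter of chloride was lower during EIU. Slc12a2, the NKCC1 importer of sodium, potassium and chloride, had 3.64 to 18.7 RPKM in naïve retinas (median 6.13), 0.369 to 2.59 (1.23) at 4 h and 2.28 to 13.5 (5.25) at 2 weeks. It had 0.783, 0.612, 0.872, 5.95 and 1.91 RPKM at 18 h, so that 4 of 5 were below the naïve range and replicate 4 was within it. Slc12a2 fell by 1.71 ± 0.38 at 4 h (limma, adjusted p = 0.0027) and by 1.49 ± 0.40 at 18 h (adjusted p = 0.025). The 18 h call was lost without 18 h replicate 1 (adjusted p = 0.096), 2 (0.11) or 3 (0.09). It was also lost with a pseudocount of 10 (0.076), a replicate block (0.051), quantile normalisation (0.073), untransformed RPKM (0.18) and experiment 1 alone (0.19). In experiment 2 alone the 18 h change was -1.08.

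Slc12a9, Slc4a7 and Slc9a9 had naïve medians of 4.32, 4.65 and 11.2 RPKM and log2 fold changes between -0.74 and -0.21 at 4 h and 18 h, none called. Slc24a1, the sodium, calcium and potassium exchanger of rod outer segments, differed with the experiment. In naïve retinas it had 5.79 to 23.4 RPKM in experiment 1 and 68.5 to 78.1 in experiment 2, where the rod markers summed to 823 to 5967 and 3996 to 6629. No difference between the groups was called (0.11 ± 0.62 at 4 h, -0.68 ± 0.66 at 18 h, adjusted p = 0.95 and 0.65). Slc17a7, a vesicular glutamate carrier of neurons, ranged from 0 to 27.7 RPKM in naïve retinas. Slc24a5, the exchanger of melanosomes, ranged from near 0 to 28.4 RPKM (median 0.868). The 3 pigment epithelium markers (Rpe65, Best1 and Rgr) summed to 0 to 6.55 RPKM in naïve retinas, 5.07 to 12.8 at 4 h, 0 to 6.79 at 18 h and 0 to 10.7 at 2 weeks. The part of rod, neuronal or pigment cell RNA in these 3 members was not tested. The summed RPKM of the 7 ion carriers had medians of 64.9, 41.5, 28.9 and 71.1 over the 4 groups.

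Among 17 members of the Slc25 family, Slc25a45 was called at 4 h and Slc25a5 gave the largest absolute change. Slc25a45, a mitochondrial carrier, had 0 to 70.6 RPKM in naïve retinas (median 7.67), 0 to 1.89 (0.617) at 4 h and 2.71 to 23.1 (12.96) at 2 weeks, with 12.6, 9.10, 11.4, 12.3 and 5.84 at 18 h. It fell by 1.91 ± 0.62 at 4 h (limma, adjusted p = 0.047), a call kept in 7 of 28 fits with a retina left out. It was 2.77 ± 0.72 higher at 18 h than at 4 h (adjusted p = 0.018), with no overlap between those groups. That call was lost with a pseudocount of 10 (adjusted p = 0.11), no filter (0.06), a replicate block (0.058), experiment 1 alone (0.12) and untransformed RPKM (0.64). In experiment 2 alone the difference was 1.55. Slc25a5 had 1322, 1180, 1272, 179 and 902 RPKM at 18 h. Of these, 4 lay above every naïve (82 to 537), 4 h (279 to 592) and 2-week (145 to 567) retina, and replicate 4, with few genes detected, lay below the naïve median. The difference was 1.48 ± 0.46 (adjusted p = 0.059), and 2.02 (adjusted p = 0.0039) without replicate 4. Because Slc25a5 has processed copies in the genome, and the estimation could divide reads between them, its level is uncertain.

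Slc25a4 had medians of 119, 130, 107 and 124 RPKM, Slc25a3 of 48.8, 58.0, 48.3 and 50.1, and Slc25a33 of 44.4, 41.9, 28.7 and 51.7 over naïve, 4 h, 18 h and 2-week retinas. Slc25a3 varied least of these, with log2 fold changes of 0.39 ± 0.26, 0.05 ± 0.28 and 0.17 ± 0.25. Slc25a11 had a naïve median of 28.9 RPKM and 20.2 at 4 h (-0.75 ± 0.66). Slc25a17, a carrier of peroxisomes rather than mitochondria, had 21.9 and 21.1 RPKM. The others, among them the citrate carrier Slc25a1, the aspartate and glutamate carrier Slc25a12, the mitoferrin Slc25a28, the glycine carrier Slc25a38 and Slc25a39, needed for mitochondrial glutathione, had naïve medians of 1.10 to 8.41 RPKM, and none was called. The same holds for Slc25a14, Slc25a30, Slc25a36 and Slc25a46. Summed over the 17, the median was 739 RPKM (256 to 1052) in naïve retinas, 862 (488 to 1006) at 4 h, 1487 (381 to 1729) at 18 h and 915 (326 to 987) at 2 weeks. Scaled to equal summed RPKM, these medians were 811.9, 775.1, 1257 and 938.3, so that the order of naïve and 4 h retinas turned. Slc25a5 alone had medians of 418, 509, 1180 and 444 RPKM.

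Vitamin and cofactor carriers gave no call in limma at any time (1 of 5 had an unadjusted p under 0.05 at 4 h and 1 at 18 h). Slc46a3, a lysosomal carrier, had the highest naïve level among them at 27.8 RPKM (0.143 to 57.9), with 6.79 at 4 h and 12.6, 11.3, 9.72, 0 and 9.001 at 18 h. Differences of -1.69 ± 0.80 at 4 h and -1.64 ± 0.85 at 18 h were not called (adjusted p = 0.22 and 0.32), and at 4 h it was called lower at -2.13 (adjusted p = 0.0033) once the 4 retinas with the fewest genes were left out. Slc46a1 (folate), Slc44a1 (choline), Slc33a1 (acetyl-CoA) and Slc23a2 (vitamin C) had naïve medians of 6.70, 4.23, 3.87 and 2.73 RPKM. Slc44a1 differed by -1.18 ± 0.38 at 18 h. The monocarboxylate carriers Slc16a1 and Slc16a6 had naïve medians of 12.2 and 11.4 RPKM. Slc16a1, which moves lactate, had 7.29, 1.44, 3.88, 21.5 and 4.60 at 18 h (-0.99 ± 0.41, adjusted p = 0.19), and without the high replicate 4 it was called at -1.43 (adjusted p = 0.031).

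The remaining members were the sialic acid exporter of lysosomes Slc17a5 (naïve median 4.87 RPKM), the vesicular monoamine carrier Slc18a2 (2.45), the polyamine carrier Slc18b1 (3.86), Slc10a3 (9.77) and Slc9a3r1 (4.10), which is a scaffold protein named after a carrier and not itself a carrier. None was called at any time, and their log2 fold changes ran from -0.96 to 1.22. Of 31 carriers listed under other symbols, 25 were tested and 1 was called. Slco2b1, an importer of organic anions typical of microglia, had 21.3 to 108.8 RPKM in naïve retinas (median 30.4), 0.0146 to 13.01 (6.80) at 4 h, 1.59 to 8.56 (7.89) at 18 h and 13.6 to 49.5 (23.6) at 2 weeks. It fell by 2.66 ± 0.47 and 2.55 ± 0.49 (adjusted p = 0.00016 and 0.0013), with no overlap with naïve retinas at either time.

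Between 18 h and 4 h, 2 members were higher (2.56% of the members, against 2.92% of all genes) and 4 lower (5.13% against 2.51%). The higher ones were Slc25a45 and Slc35a1 and the lower ones Slc39a4, Slc2a6, Slc15a3 and Slc1a3, and 3 of these 4 are members only through the 4 h retinas. The comparisons with naïve retinas share the same 10 naïve retinas. Slc2a5 and Slc12a2 were called lower at both 4 h and 18 h, with the losses of calls given above, and no member was called higher at both. Slc40a1 was also counted as lower at both times, but it is a member only through the naïve retinas, where it was high.

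Leaving out the 4 retinas with few genes gave 14 called members at 4 h and 11 at 18 h, and all 11 and all 6 of the calls above were among them. The 4 h calls include Slc11a2, Slc2a6, Slc39a4 and Slc15a3, members only through the 4 h retinas. Slc40a1, a member only through the naïve retinas, is among the calls at both times. For these members the kept calls are a description. The additional ones at 4 h were Slc18b1, Slc37a2 and Slc46a3, all lower, of which Slc37a2 does not pass the limit without the naïve retinas. At 18 h they were Slc25a5 and Slc3a2, both higher, and Slc16a1, Slc1a3 and Slc9a9, all lower. At 18 h the call of 6 rose to 9 when replicate 4 alone was left out. Between 18 h and 4 h, 9 members were called without the 4 retinas. Slc2a6 lost its call (-1.84) and the other 5 calls were kept. Of these 6, Slc2a6, Slc39a4 and Slc15a3 are members only through the 4 h retinas, where they were high. For them this is a description. In limma, Slc25a5 (1.33, adjusted p = 0.0073), Slc29a3 (1.76, 0.0056), Slc35b1 (1.75, 0.0018) and Slc50a1 (1.59, 0.036) were called higher at 18 h.

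At 2 weeks no member differed from naïve microglia by the test, and 1 of 78 had an unadjusted p under 0.05 in limma. The 3 with the smallest p were Slc39a4 (0.95 ± 0.36), Slc30a5 (0.66 ± 0.38) and Slc35d2 (-0.66 ± 0.39). Slc30a5 reached the limit for members in 5 retinas, 3 of them at 2 weeks, and would not pass without those. Its 2-week difference is therefore given as a description. The 95% intervals of Slc39a4 and Slc35d2 were 0.21 to 1.68 and -1.46 to 0.14 on the log2 scale, so both reach past a 2-fold change. Members that were called at 4 h or 18 h had 2-week log2 fold changes between -0.23 (Slc31a1) and 0.95 (Slc39a4). The change at 4 h was not called different between the experiments for any member (0 of 78 by limma, against 0.0988% of all genes), and 2 had an unadjusted p under 0.05.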

How the data were processed

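Sorted microglia of 28 single retinas were profiled by mRNA-Seq from SMART-Seq v4 cDNA and Nextera XT libraries, which do not mark strand, so reads of overlapping genes cannot be told apart. The authors trimmed the reads, aligned them to mm10 with STAR 2.5.3a, assigned them to Ensembl transcripts by expectation maximisation in Partek and deposited RPKM values per gene, with the number of alignments of each retina (7510000 to 19700000). That step can divide reads between related genes. RPKM values hold no counts, so no counting interval is given. The authors' own tables for 4 h and 18 h, which hold p-values, ratios and fold changes, were not used.

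Groups came from the labels. The 13164 genes (of 40021) that reached an RPKM of 1 in 5 or more retinas entered 1 limma 3.58.1 fit (R 4.3.3) of the 4 groups on log2(RPKM + 1) with a mean-variance trend, and a fit of group by experiment compared the change at 4 h between experiments. P-values were two-sided and adjusted by the method of Benjamini and Hochberg over all genes tested, and intervals are 95%. The fit was tested on simulated data.

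The members, substrate classes (by family number), gene lists and markers were chosen with earlier results of these data known. Genes were named if called (up to 12 each way), if among the 3 smallest p at 2 weeks, if highest in naïve retinas overall (10) or in a class, or if next to the limit for members. The others were named after their values were seen, to account for the members. A lymphocyte marker and 2 members are counted but not reported by name here. Promoters are those of RefSeq for GRCm38.p6.

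The alternatives were pseudocounts of 0.1 and 10, no filter or one at an RPKM of 5, the experiment as a covariate, a replicate block, each experiment alone, quantile normalisation, equal summed RPKM, untransformed RPKM, other limits for members (an RPKM of 1 or 10, or naïve retinas alone) and each retina left out. Leaving out the 4 retinas with under 8000 genes at an RPKM of 1 was chosen after seeing the data.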

Additional observations from a re-analysis of the deposited data

Results flagged for a closer look

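In 24 of 148 sets of values (a named gene in 1 group) the highest or lowest retina stood apart from the others by Dixon's gap criterion, which chance gives in about 1 of 20. Of these, 17 were in the 4 retinas with the fewest genes detected. The 18 h replicate 4 held 8 of them. In it Slc17a5 was low at 0.0486 RPKM (2.68 to 4.13 in the other retinas at 18 h), Slc29a3 at 0.0453 (6.25 to 12.02), Slc38a1 at 0.0511 (2.26 to 2.95), Slc46a3 at 0 (9.001 to 12.6) and Slc9a3r1 at 0.137 (4.93 to 9.15). The nucleotide exchangers of mitochondria were also low there, Slc25a4 at 25.9 RPKM (104.6 to 143.9) and Slc25a5 at 179 (902 to 1322), while Slc35d2 was high at 20.1 (5.19 to 7.35).

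In 2-week replicate 1, Slc25a4 was low at 16.2 RPKM (90.4 to 193.2 in the others), Slc35a1 at 11.5 (20.5 to 30.3), Slc35b1 at 0.909 (31.6 to 73.9) and Slc9a3r1 at 0.105 (4.49 to 11.01). In naïve replicate 3, Slc25a11 was low at 0.111 RPKM (8.90 to 55.3), Slc29a3 at 3.27 (10.1 to 19.0) and Slc46a3 at 0.143 (16.7 to 57.9). In naïve replicate 4, Slc25a3 was low at 16.8 RPKM (32.95 to 63.9) and Slc50a1 at 0.0766 (11.7 to 84.2).

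The other 7 values came from 5 retinas. In 4 h replicate 2, Slc25a11 was low at 0.245 RPKM (9.03 to 29.1) and Slc35d2 at 0.0789 (4.03 to 9.60). In naïve replicate 1, Slc2a6 was high at 11.2 RPKM (0 to 1.67) and so was Slc22a17, a gene just outside the limit for members, at 27.5 (0 to 4.72). Slc12a2 was high at 18.7 RPKM in naïve replicate 6 (3.64 to 7.15), Slc4a7 low at 0.655 in naïve replicate 5 (3.95 to 11.5) and Slc10a3 low at 1.38 in 2-week replicate 7 (7.87 to 22.4).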

How the results depend on the processing

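No alternative turned the direction of a named member's change. Over the named members and all alternatives but the one chosen after seeing the data, 872 results kept their side of the threshold and 142 lost the call. These counts pool 28 fits with a retina left out and 11 other alternatives for each result. They include the 3 members named at 2 weeks, which were never called, and members that pass only through a tested group. Among the 11, the calls held in 4 (Slc2a6, 18 h against 4 h) to 11 (Slc11a2, 4 h). With a pseudocount of 10, 3 members were called at 4 h in place of 11 and 2 between 18 h and 4 h in place of 6. In experiment 1 alone there were 5 at 4 h, 1 at 18 h (in place of 6) and 1 between 18 h and 4 h. In experiment 2 alone, which held 1 retina at 18 h, assumed to vary like the other groups, there was 1 at 18 h and there were 3 between 18 h and 4 h. Untransformed RPKM gave 6 at 4 h. With members at an RPKM of 10 there were 6 at 4 h, 3 at 18 h and 3 between them, and with members chosen on naïve retinas 7 at 4 h and 3 between them, from fewer members. Without the 4 retinas with the fewest genes there were 11 at 18 h. Single experiments hold fewer retinas, and the cause of the other moves was not tested. With a retina left out, 9 to 12 members were called at 4 h, 4 to 9 at 18 h, 0 at 2 weeks and 3 to 7 between 18 h and 4 h (3 without 4 h replicate 1 or 18 h replicate 2), and 0 differed between experiments. Equal summed RPKM moved the median of all genes from -0.11 to -0.28 at 4 h and from -0.08 to -0.26 at 18 h on the log2 scale. Read depth behind each RPKM value is unknown, which limits the 4 members with a naïve median under 1 most.

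The deviations of 34 same-numbered pairs of retinas correlated at -0.329 to 0.698 (median 0.035), and 15 pairs were above 0.1. No pairs with different numbers are set beside them, so these values cannot settle whether the replicate numbers pair the retinas. With the replicate block, 10 members were called at 4 h, 4 at 18 h, 0 at 2 weeks and 3 between 18 h and 4 h, and 0 differed between experiments. The comparison between experiments was not run on untransformed RPKM.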
